A study of Ovis aries with 95 samples.

Results

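CHI3L1 was followed through the second part of gestation and the first day after birth in 4 regions of the sheep brain. It was the gene of 1 of 15008 gene probes on the array, and 1 of 14342 genes or unnamed transcripts that these probes stand for. It was found by its symbol, and the array's own annotation describes the transcript as the sheep signal processing protein, another name of this gene. The gene was chosen by its measured difference between 145 d and the newborn in these same arrays, so the values at 145 d and in the newborn are given as a description, without a test. The ages from 80 to 130 d were not used in that choice, and they are tested.

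CHI3L1, also called YKL-40, is a secreted glycoprotein of the chitinase family that binds chitin-like sugars but has lost the catalytic activity of the true chitinases. It is made by astrocytes, macrophages, neutrophils and several mesenchymal cells, and inflammatory cytokines such as IL-1 and IL-6 are known to induce it. In the brain it is best known as a product of reactive astrocytes.

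Total RNA of the cortex, brainstem, hippocampus and hypothalamus was labelled with Cy3 and hybridized to 95 one-colour sheep arrays, 1 sample to an array. The untreated fetuses were at 80, 96 to 100 (called 100 d), 120, 130 and 142 to 144 (called 145 d) days of gestation, and the untreated newborn lambs were in the first day after delivery. Each region and age had 4 arrays, except the hippocampus at 100 d with 3. The methods name 4 animals for each age, so the 4 regions came from the same animals, but the labels do not tie arrays of different regions to 1 animal. Each age included 1 set of twins, which the labels do not mark, so some animals shared a dam, and p-values measure the spread between these samples only.

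On every array the gene had 1 spot, so the 60-base probe carries the whole measurement. It is printed 5′ to 3′ beside 1 of the 2 probes of CHIA, to show how far the probes can be told apart. CHIA, acidic chitinase, is the closest family member with a named probe. In the CHI3L1 probe, capitals mark the longest run that any other probe of the array shares with it, and in the CHIA probe, capitals mark the longest run shared with the CHI3L1 probe.
CHI3L1: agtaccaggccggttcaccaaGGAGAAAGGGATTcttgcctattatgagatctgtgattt
CHIA: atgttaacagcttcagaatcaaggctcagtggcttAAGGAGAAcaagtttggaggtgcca
The CHI3L1 run is 13 bases long and was found in 2 of the 15007 other probes, neither of which has a gene symbol. The run shared with CHIA is 8 bases, and the probe of CHID1, a distant family member, shared no run of 6 or more. The GC content of the CHI3L1 probe is 45.0%, against a median of 43.3% over all gene probes. The gene lies on chromosome 12 between MYBPH and BTG2 in the RefSeq gene order, with 1 protein-coding locus without a gene symbol between it and BTG2. Neither MYBPH nor BTG2 had a named probe.

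The spot was well above the local background on all but 2 arrays, and it was never saturated or marked as an outlier. The 2 dim spots were replicate 4 of the hippocampus at 120 d and replicate 1 of the newborn hypothalamus. Over the series, 59.5 to 88.5% of gene spots per array were well above background, and the correlation of an array with the mean of the rest of its group had a median of 0.986 and a minimum of 0.831. In 7 arrays, all labelled hippocampus, the closest group mean belonged to another region, and 3 of these were newborn hippocampus. On 12 arrays, 5 of cortex, 3 of hippocampus and 4 of hypothalamus, the background correction lifted the dim spots, with the median negative control at 178 to 1514 before normalization, against 55.3 to 70.5 on the other arrays, and the order of spots within an array was kept. Bulk tissue cannot tell more CHI3L1 RNA per cell from more cells that make it.

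Levels are quantile normalized log2 intensities, and a log2 difference of 1 is a doubling. The 4 newborn groups had the highest means of the 24 groups. Newborn brainstem stood first with 10.65 ± 0.52 (SD, n = 4), before newborn hippocampus with 10.06 ± 0.66 (SD, n = 4), newborn cortex with 9.64 ± 0.70 (SD, n = 4) and newborn hypothalamus with 9.46 ± 2.12 (SD, n = 4). The lowest groups were cortex at 80 d with 7.27 ± 0.11 (SD, n = 4) and cortex at 100 d with 7.29 ± 0.22 (SD, n = 4). Of the 23 pairs of neighbours in this order, 1 differed by more than their pooled SD, namely brainstem at 80 d and cortex at 100 d with a gap of 0.41.

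**Figure D1:**
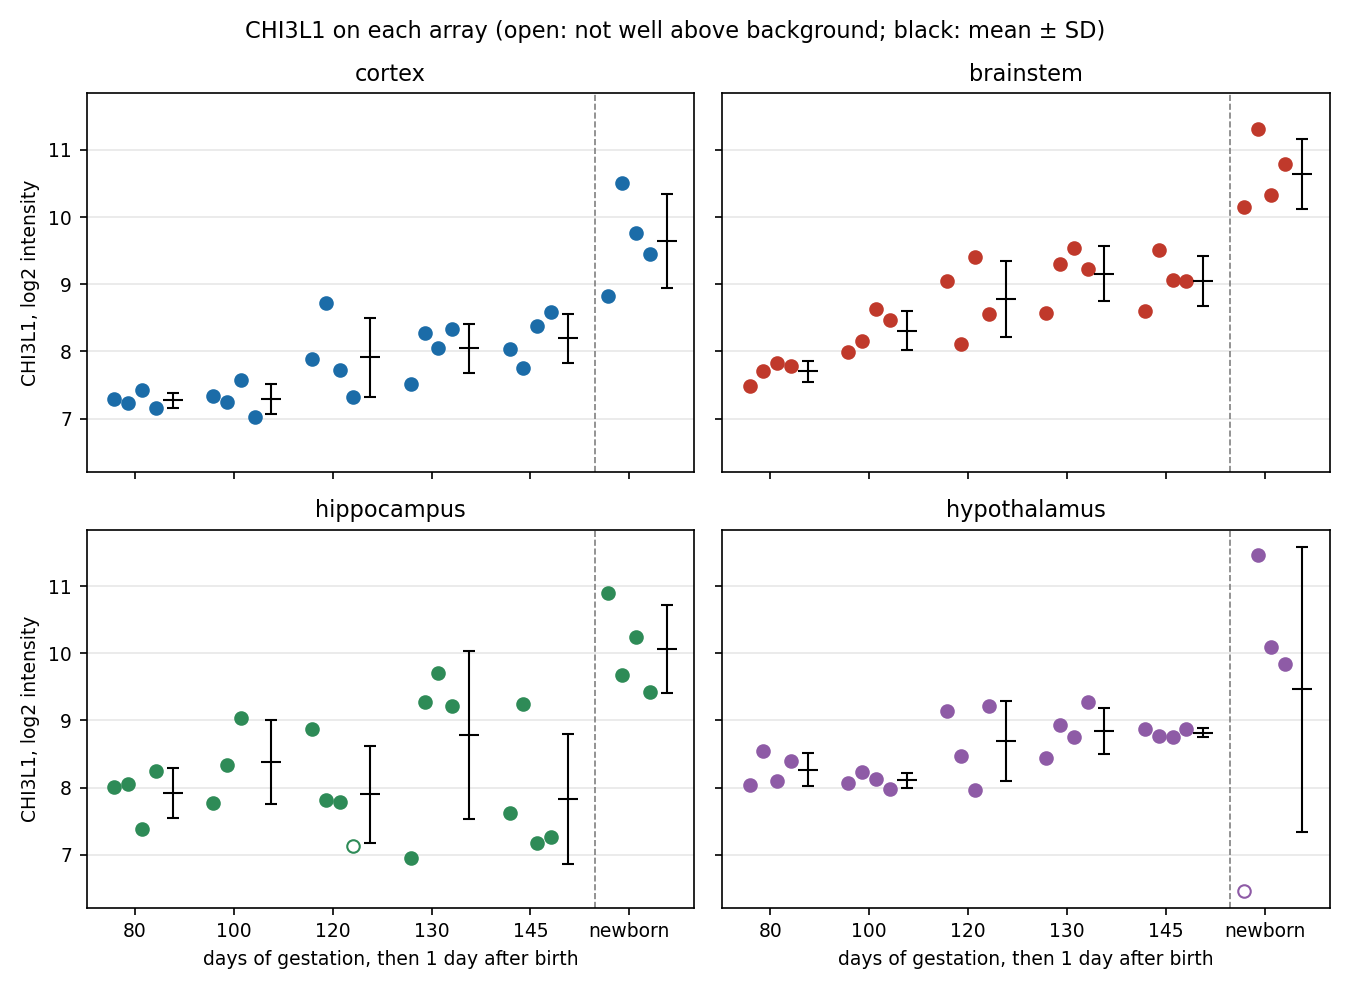
CHI3L1 on each of the 95 arrays, as quantile normalized log2 intensity (vertical axis) against age (horizontal axis), with 1 panel for each region. Coloured points are arrays in the order of their replicate numbers, open points were not well above background, and black bars are the group mean ± SD. Newborn arrays lie above all 145 d arrays in cortex, brainstem and hippocampus, and 1 newborn hypothalamus array lies at 6.47, below every other array.

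In the cortex the newborn level was 2.72 times the level at 145 d. The 145 d arrays read 8.04, 7.76, 8.38 and 8.59, and the newborn arrays read 8.83, 10.51, 9.76 and 9.46. No newborn cortex array overlapped with 145 d, and the lowest newborn, replicate 1, was closest to the fetal range. The difference of the means was 1.45 on the log2 scale with a standard error of 0.29. For orientation, all newborn arrays lay above all 145 d arrays for 1.5% of the 12882 genes that could be compared in cortex, and 53 of 12900 genes had a difference as large as that of CHI3L1.

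In the brainstem the ratio was 3.02. CHI3L1 read 8.60, 9.51, 9.06 and 9.04 at 145 d and 10.14, 11.32, 10.34 and 10.79 in the newborn. The groups did not overlap, and every newborn brainstem array was above every fetal array of any region. The difference was 1.59 with a standard error of 0.27. All newborn arrays lay above all 145 d arrays for 5.49% of genes in this region, and 32 of 12776 genes differed by as much. Replicate 4 of the newborn brainstem had a low correlation with its group, 0.866, and without it the difference was 1.55.

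In the hippocampus the ratio was 4.71, against a fetal level that lay near background on some arrays. The 145 d arrays read 7.62, 9.25, 7.17 and 7.26, and the newborn arrays read 10.90, 9.68, 10.24 and 9.42. The groups did not overlap, but replicate 2 at 145 d stood apart from the other 3 and lay just under the lowest newborn. Before normalization, replicates 3 and 4 at 145 d had intensities of 94.0 and 101, where 95% of the negative control spots lay under 69.9 and 82.7. The difference was 2.24 with a standard error of 0.56, and all newborn arrays lay above all 145 d arrays for 0.646% of genes. In this region 17 of 12685 genes differed by as much, and with the processed signal the difference was 3.01 (8.05-fold). Without the 7 arrays that were closest to another region, 1 newborn array remained, and its level was 2.42 above the mean of the 4 arrays at 145 d. This array, replicate 3, had a correlation of 0.863 with its group, the second lowest of the 95, and its neighbouring spots, described below for the hypothalamus, deviated by 0.58.

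The hypothalamus was the region in which the newborn arrays disagreed. The 145 d arrays lay close together at 8.87, 8.77, 8.75 and 8.88, while the newborn arrays read 6.47, 11.46, 10.09 and 9.84. Replicates 2, 3 and 4 were above every 145 d array, and replicate 1 was below all of them. The difference over the 4 newborn arrays was 0.65 with a standard error of 0.61, a ratio of 1.57. Without newborn replicate 1 the difference was 1.65 and the ratio 3.13, without replicate 2 it was -0.017, and with the processed signal scaled to each array's 75th percentile it was -0.010. All newborn arrays lay above all 145 d arrays for 6.93% of genes in the hypothalamus, and CHI3L1 was not among them.

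The spot of CHI3L1 lies at row 126 and column 3 of 192 rows and 82 columns, 2 columns from the edge of the array. On newborn hypothalamus replicate 1 many, but not all, of the spots around it were also lower than on the other newborn hypothalamus arrays. The neighbours were the 20 gene spots within 3 rows and columns whose mean log2 level over all arrays was at least 8, a window set after the values were seen. Their median deviation from the other newborn hypothalamus arrays was -0.85, beside a deviation of -4.00 for CHI3L1 itself. Of the 20 neighbours, 14 were lower, 8 of them by more than 1, and the rest were not lower. This was the lowest neighbourhood of the 95 arrays, and on the other 94 arrays the median ran from -0.41 to 0.81. The highest, 0.81, was that of newborn brainstem replicate 4. On the same array, 8.62% of the spots within 5 rows or columns of an edge were lower by more than 2 than on the other newborn hypothalamus arrays, against 1.63% of the spots further in.

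Around the same spot the neighbours did not share the difference between newborn and 145 d. Cortex neighbours had a median difference of 0.0076 and brainstem neighbours one of 0.087, while the medians were -0.00060 for hippocampus and -0.24 for hypothalamus. The highest single neighbour stood at 0.73, in brainstem, under the difference of CHI3L1 there. Across arrays, the deviation of CHI3L1 from the rest of its group and that of its neighbours had a Pearson r of 0.34 over 95 arrays and 0.15 over the 94 without newborn hypothalamus replicate 1. These are given as a description, since the points share arrays and groups.

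**Figure D2:**
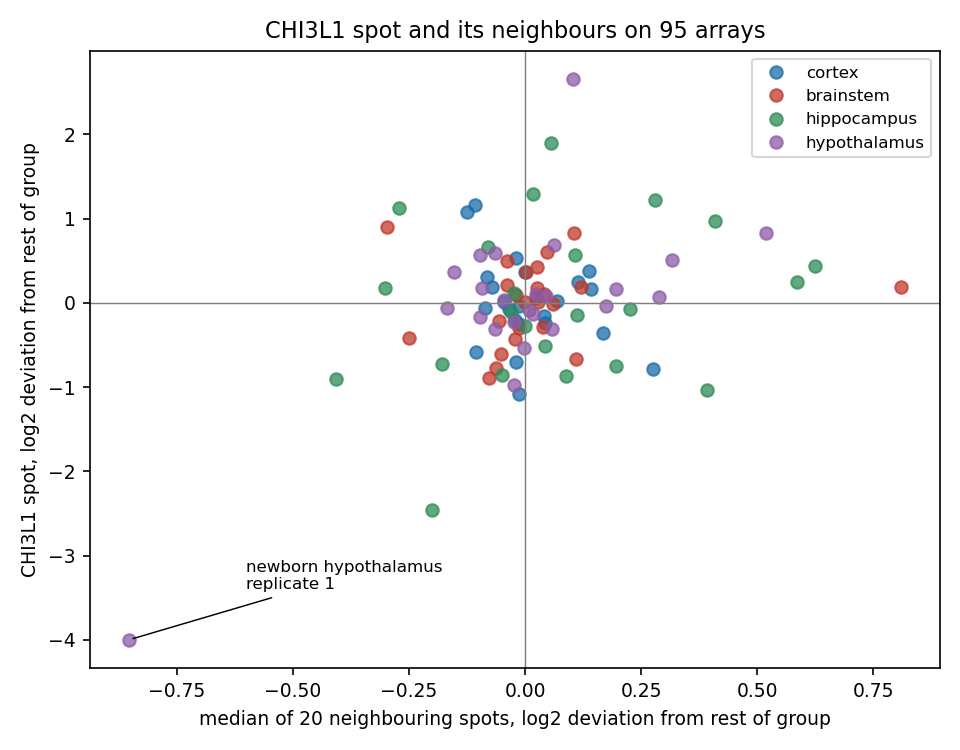
Deviation of the CHI3L1 spot (vertical axis, log2) against the median deviation of its 20 neighbouring spots (horizontal axis, log2) on 95 arrays, each taken from the mean of the other arrays of the same region and age. Newborn hypothalamus replicate 1 lies alone at -4.00 and -0.85, and the other 94 arrays have an r of 0.15.

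Each of the 14 slides held arrays of 1 region only, while ages were spread over the slides of a region. Within slides that held both ages, the newborn minus 145 d difference of CHI3L1 was 0.78, 2.75 and 1.12 in cortex and 1.09, 2.25 and 1.52 in brainstem. It was 2.47 and 2.57 on the 2 hippocampus slides with both ages, and -2.40, 2.69 and 1.15 in hypothalamus. The direction was up on 10 of these 11 slides, and the exception was the slide of newborn hypothalamus replicate 1.

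**Figure D3:**
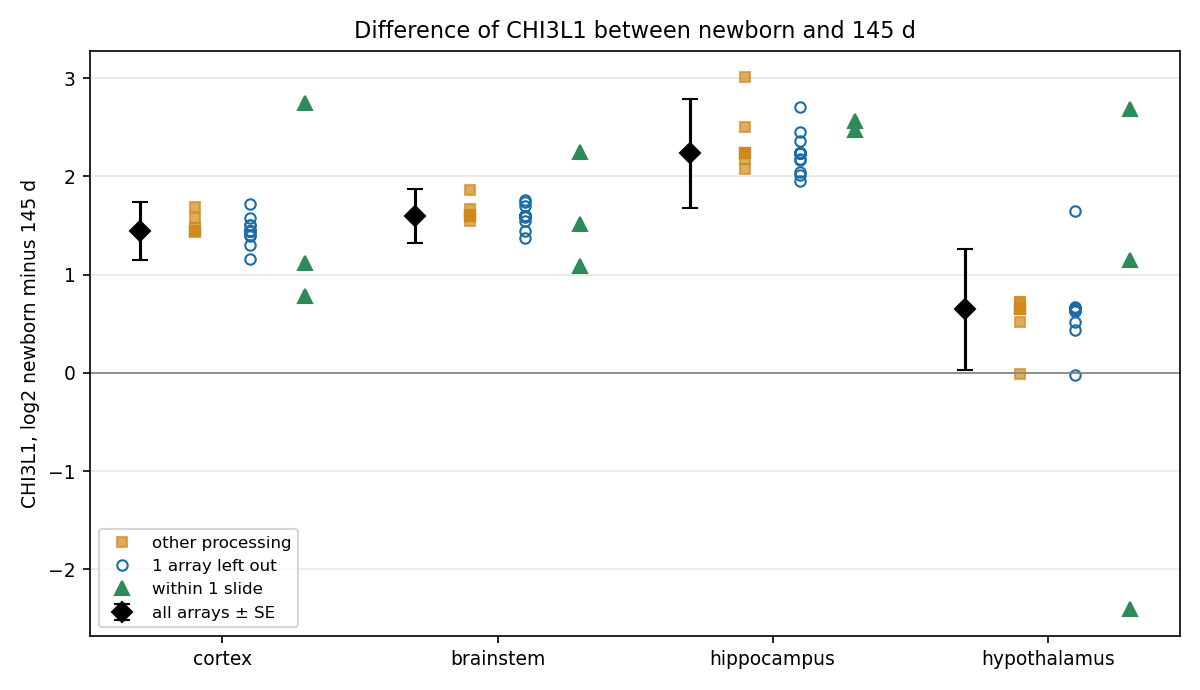
Newborn minus 145 d difference of CHI3L1 (vertical axis, log2) in each region (horizontal axis). Black diamonds are all arrays with the standard error, squares are other ways of processing, open circles leave out 1 array each, and triangles are differences within 1 slide. All points lie above 0 in cortex, brainstem and hippocampus, and some lie below 0 in hypothalamus.

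Newborn arrays with the same replicate number were set side by side across regions, although the labels do not say that a number marks 1 animal. CHI3L1 was highest in replicate 2 in cortex, brainstem and hypothalamus, and in replicate 1 in hippocampus. Replicate 1 was the lowest newborn in cortex, brainstem and hypothalamus and the highest in hippocampus.

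Before 145 d, CHI3L1 rose in the brainstem. The 4 arrays read 7.49, 7.71, 7.83 and 7.78 at 80 d and 7.99, 8.15, 8.63 and 8.47 at 100 d. They read 9.05, 8.11, 9.40 and 8.55 at 120 d and 8.58, 9.30, 9.53 and 9.23 at 130 d. From 80 to 100 d and from 80 to 120 d the groups did not overlap, and the spread was widest at 120 d. The course over 80, 100, 120 and 130 d passed limma's moderated F test with an adjusted p of 0.00238, as did 21.7% of the 12776 genes tested in brainstem. The rise from 80 to 130 d was 1.46 on the log2 scale (2.75-fold), with a 95% confidence interval of 0.89 to 2.03 and an adjusted p of 0.000454 in limma. In this comparison 9.73% of genes were higher at 130 d, and 173 of 12776 rose by as much as CHI3L1 did. Already by 120 d the gene was 1.08 higher than at 80 d (limma, adjusted p = 0.00771), as 7.9% of genes were. None of the 3 steps between successive ages passed alone, with adjusted p-values in limma of 0.164, 0.523 and 1.00, where 4.4%, 1.71% and 0% of genes were higher.

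In the cortex the level was low and even at the first 2 ages and higher from 120 d on. It read 7.30, 7.22, 7.42 and 7.16 at 80 d, and 7.34, 7.24, 7.57 and 7.03 at 100 d. At 120 d the arrays read 7.88, 8.72, 7.72 and 7.32, and at 130 d they read 7.52, 8.28, 8.06 and 8.33. The groups at 80 and 130 d did not overlap. The difference of 0.77 (1.71-fold, 95% confidence interval 0.17 to 1.38) passed with an adjusted p of 0.0396 in limma, in a comparison in which 18.2% of the 12900 genes were higher. With the processed signal it was 1.82 (3.53-fold, adjusted p = 0.00240 in limma). The F test over the 4 ages had an adjusted p of 0.0630 in limma, and 35.9% of genes passed it. Both values lay near the threshold, and the difference no longer passed when any 1 of the 4 arrays at 80 d or of replicates 2, 3 and 4 at 130 d was left out, with adjusted p-values from 0.0529 to 0.105.

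In the hippocampus CHI3L1 varied more between arrays of 1 age than between ages. It read 8.01, 8.06, 7.38 and 8.25 at 80 d, 7.78, 8.33 and 9.03 at 100 d, 8.87, 7.81, 7.79 and 7.13 at 120 d, and 6.95, 9.28, 9.70 and 9.21 at 130 d. Replicate 1 at 130 d was far under the other 3. The F test had an adjusted p of 0.945 and the 130 d minus 80 d difference of 0.86 had an adjusted p of 0.434 in limma, with a 95% confidence interval of -0.30 to 2.02. In this region 1.43% of genes passed the F test and 1.52% were higher at 130 d.

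In the hypothalamus the level at 80 d, 8.27 ± 0.24 (SD, n = 4), was the highest of the 4 regions at that age. The arrays at 130 d read 8.45, 8.93, 8.75 and 9.27. The 130 d minus 80 d difference was 0.58 with a 95% confidence interval of -0.70 to 1.86 and an adjusted p of 0.659 in limma, and the F test had an adjusted p of 0.928. Of the 12927 genes, 4.31% were higher at 130 d and 7.85% passed the F test. The spread of this fit is shared by all 6 ages and includes newborn replicate 1. Without that array the adjusted p-values were 0.236 and 0.299, and the difference was the same.

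Over 80 to 130 d the mean level of CHI3L1 was 7.63 in cortex, 8.25 in hippocampus, 8.48 in hypothalamus and 8.49 in brainstem. In 1 limma fit over all arrays the region differences passed the moderated F test with an adjusted p of 0.00286, as did 74.2% of 13343 genes. Cortex was lower than brainstem by 0.86 (adjusted p = 0.00224), lower than hypothalamus by 0.85 (adjusted p = 0.00309) and lower than hippocampus by 0.62 (adjusted p = 0.0360) in limma, where 43.4%, 38% and 40.3% of genes passed. With the processed signal the first 2 were 2.74-fold (adjusted p = 0.00121 in limma) and 2.83-fold (adjusted p = 0.00115). With slide as a random block none of these passed. The adjusted p in limma was then 0.122 for the F test, 0.0877 for brainstem, 0.0742 for hypothalamus and 0.240 for hippocampus against cortex, at differences of 0.85, 0.90 and 0.62. Regions lay on slides of their own, so slide and region cannot be told apart, and arrays of 1 animal were treated as separate samples. Without the 7 hippocampus arrays closest to another region, the hippocampus minus cortex difference was 0.59 and did not pass (limma, adjusted p = 0.0671). The 3 differences among brainstem, hypothalamus and hippocampus did not pass, in comparisons that 41.9%, 36.1% and 34.3% of genes passed, and their 95% confidence intervals lay within -0.73 and 0.72. A difference in the fetal course between regions was not detected (limma, unadjusted p = 0.755, adjusted p = 1.00), in a test that 3.86% of genes passed.

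Other members of the chitinase family were few among the named probes, since CHIT1, CHI3L2, OVGP1 and CTBS had none. Probes without a symbol were not searched for them. CHID1, a chitinase domain protein, was bright in all regions, with 14.27 in cortex at 145 d, and its newborn minus 145 d differences ran from -0.35 to 0.15 without passing in limma in any region. CHIA was tested in brainstem and hypothalamus, where its differences of -0.041 and -0.10 did not pass. Of the 8 proteins reported as CHI3L1 receptors or partners, none had a named probe.

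Genes of related pathways and markers of brain cell types were set beside CHI3L1 at birth. The 15 lists held 199 genes, of which 65 had a named probe. Of the 15008 gene probes, 13446 had no symbol, and further list genes can lie among them unseen. The paper reports array results for MBP, CSF1R and CD44, which are in the lists but had no named probe here. Between 145 d and the newborn, limma passed 4 of 58 tested list genes in cortex and 9 of 63 in brainstem. It passed 4 of 62 in hypothalamus and 0 of 59 in hippocampus, where 9 had an unadjusted p under 0.05. The cortex count ran from 0 (without newborn replicate 3) to 8 (without newborn replicate 1) when 1 array was left out, and the brainstem count was 3 without replicate 4 at 145 d. Over all genes, 0.163% were higher and 0.0853% lower in cortex, 3.68% and 1.22% in brainstem, 0.00788% and 0% in hippocampus, and 1.42% and 1.06% in hypothalamus. Over all hippocampus genes, 1 passed.

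The 9 measured genes of inflammatory signalling were cytokines and also NFKBIA, CEBPB, TLR4 and MYD88, so not all of them induce inflammation. Among them the cytokine gene IL1B was the 1 that passed, in brainstem, with a rise of 0.37 (limma, adjusted p = 0.0387). This call was lost under 5 of 11 other ways of processing. This list had a median difference of 0.13 for cortex and 0.15 for brainstem, and of 0.22 for hippocampus and 0.21 for hypothalamus, against medians of all genes between -0.024 and 0.029. Of 4 glucocorticoid response genes, TXNIP, a thioredoxin inhibitor, rose by 1.43 in cortex (adjusted p = 0.0148) and by 1.01 in brainstem (adjusted p = 0.0157) in limma. In brainstem, the glucocorticoid receptor gene NR3C1 fell by 0.59 and HSD11B1, which regenerates active glucocorticoid, fell by 0.95, with adjusted p-values of 0.0118 and 0.0186 in limma, and these were -1.33 and -1.54 with the processed signal. TXNIP was 1.72 higher in newborn hypothalamus with an adjusted p of 0.0693, and 1.49 higher in newborn hippocampus with an adjusted p of 1.00 in limma.

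Of 7 astrocyte markers, GFAP, the astrocyte intermediate filament, passed upward in brainstem, by 1.05 (adjusted p = 0.0321), and in hypothalamus, by 1.64 (adjusted p = 0.00664), in limma. It was also 0.76 higher in newborn cortex (limma, adjusted p = 0.0964) and 0.64 higher in newborn hippocampus, without passing. AQP4, the astrocyte water channel, passed downward in hypothalamus with a difference of -3.565 (limma, adjusted p = 0.0403), where 1 newborn value was left out as an outlier spot and replicate 1 read 8.95 beside 14.25 and 14.28. Without newborn replicate 1 the AQP4 difference was -1.79 (limma, adjusted p = 0.0248), and 10 of 24 arrays left out in turn ended this call. AQP4 differed by -0.69 in cortex, -0.90 in brainstem and -1.37 in hippocampus, without passing. The rest of the astrocyte list in brainstem, given here after its values were seen, did not pass either. There SLC1A3 differed by -0.40, GJA1 by -0.35, MT3 by -0.0017, SLC1A2 by 0.037 and FGFR3 by 0.13. The mean level of the astrocyte list overlapped between 145 d and newborn arrays in every region, with 10.96 to 11.11 before and 10.79 to 11.15 after birth in cortex. Of 5 genes raised in reactive astrocytes, GFAP alone passed, in brainstem and hypothalamus. The mean of this list did not overlap in cortex, with 10.36 to 10.44 at 145 d and 10.71 to 11.74 in the newborn, in brainstem or in hypothalamus. It overlapped in hippocampus, with 10.70 to 11.18 and 11.11 to 12.31. Taken singly, 1.5% of all genes in cortex, 5.49% in brainstem and 6.93% in hypothalamus had every newborn array above every 145 d array. The median difference over the 5 genes of the list was -0.040 in cortex, 0.034 in brainstem and 0.15 in hypothalamus, while the mean of the levels rests also on GFAP and CXCL10. TIMP1, a protease inhibitor named here after its values were seen, had differences of -0.20, -0.48 and -0.47 that did not pass. CXCL10 of the same list, an interferon-induced chemokine singled out here after its values were seen, was 2.61, 2.56, 2.40 and 2.46 higher in the newborn of the 4 regions, and its lowest adjusted p was 0.0923.

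Of 4 microglia and macrophage markers, the complement receptor chain ITGAM and the endotoxin co-receptor CD14 rose in brainstem, by 0.42 (adjusted p = 0.0387) and 0.71 (adjusted p = 0.0203), and CD14 rose by 0.72 in hypothalamus (adjusted p = 0.0482), in limma. CD14 was also 1.05 higher in newborn cortex (limma, adjusted p = 0.0658) and 0.50 higher in newborn hippocampus, without passing. The rest of this list, given here after its values were seen, did not pass in hypothalamus. There ITGAM had a difference of -0.26, FCGR2B one of -0.095 and ITGB2 one of 0.60. Leaving out 1 array ended the hypothalamus call of CD14 for 17 of 24 arrays and the brainstem call of ITGAM for 6 of 24. ITGAM also lost its call in limma with the replicate block (adjusted p = 0.0553), the processed signal (0.0537) and the brightest probe (0.0606). The mean level of the microglia and macrophage list did not overlap in brainstem, with 7.75 to 7.84 at 145 d and 7.99 to 8.41 in the newborn. Taken singly, 5.49% of all brainstem genes had every newborn array above every 145 d array. The list mean overlapped in hippocampus, with 7.34 to 7.76 and 7.32 to 8.17. It also overlapped in cortex, with 7.55 to 7.78 and 7.70 to 8.28, and in hypothalamus, with 7.82 to 8.07 and 7.95 to 8.49. None of the 3 neutrophil markers measured passed. The brighter 2, lactoferrin (LTF) and CXCL8, stood at mean levels of 7.19 and 6.97 at 145 d, and their differences ran from 0.064 to 0.30 and from 0.040 to 0.23. Neutrophil granule genes such as MPO and ELANE were not among the 3. The part of these cell markers in the difference of CHI3L1 was not tested.

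Of 10 endothelial genes with a named probe, the drug transporter ABCB1 rose by 0.85 in cortex (adjusted p = 0.0131) and by 0.83 in brainstem (adjusted p = 0.00863) in limma. The adhesion molecule SELP rose by 0.60 in brainstem (adjusted p = 0.0204) and by 0.49 in hypothalamus (adjusted p = 0.00726). With the processed signal these were 2.74 and 2.30. SELP stood at 6.44 in brainstem and 6.52 in hypothalamus at 145 d. That is near the CHI3L1 value of 6.47 that was not well above background, so the size of its rise is uncertain. SELP was also 0.55 higher in newborn cortex (limma, adjusted p = 0.0622) and 0.35 higher in newborn hippocampus, without passing. The vasoconstrictor gene EDN1 fell by 0.83 (adjusted p = 0.0171) and the glucose transporter gene SLC2A1 fell by 0.53 (adjusted p = 0.0484) in cortex, and SLC2A1 lost its call under 10 of 11 other ways of processing. EDN1 also differed by -0.78 in brainstem, -0.88 in hippocampus and -0.68 in hypothalamus (limma, adjusted p = 0.0516 in hypothalamus), without passing. In the same regions SLC2A1 differed by -0.18, -0.15 and 0.46, without passing. No tested gene passed in the erythroid, choroid plexus, oligodendrocyte, neuron, hypothalamus and pituitary, or regional lists. Their brighter members ranged over the regions from -0.69 to 1.34 for the globin HBB and from 0.12 to 0.45 for AHSP, from -1.59 to 0.37 for the choroid plexus carrier TTR and from -0.72 to 0.29 for IGF2, from -0.53 to -0.30 for transferrin (TF) and from -0.56 to -0.0056 for GJB1, from -0.28 to 0.36 for NEUROD1, from -0.79 to 0.60 for NPY, from -0.057 to 0.17 for POMC, and from -0.90 to 0.13 for NKX6-1.

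**Figure D4:**
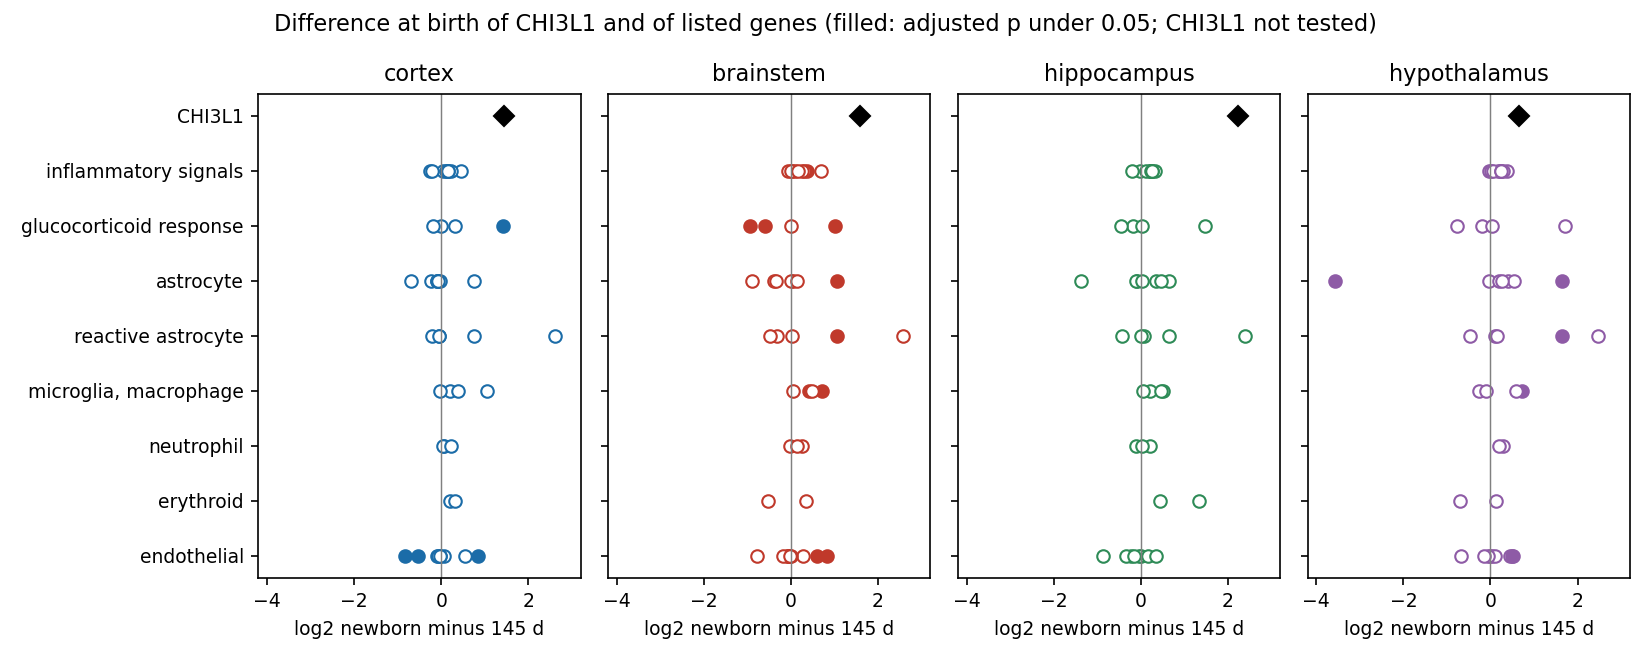
Newborn minus 145 d difference (horizontal axis, log2) of CHI3L1 and of the tested genes of 8 lists (vertical axis) in each region. Circles are single genes, filled where limma's adjusted p was under 0.05, and the diamond is CHI3L1, which was not tested at birth. In cortex, brainstem and hippocampus 1 gene, CXCL10 of the reactive astrocyte list, lies above CHI3L1.

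The genes whose pattern was most like that of CHI3L1 were sought among 840 genes with a symbol that were kept in all 4 regions. Over the 24 group means the highest Pearson r were those of IRF2, an interferon regulatory factor, with 0.866, the hydrolase NUDT16 with 0.848, OVAR, named with the prefix of sheep histocompatibility genes, with 0.845, the costimulatory receptor CD86 with 0.828, and the class II gene MHCII-DRB1 with 0.824. Without newborn hypothalamus replicate 1, 4 of these 5 were again among the first 5, and TXNIP with 0.852 took the place of NUDT16. The median over the 840 genes was 0.063 and the 95th percentile 0.680. IRF2 was 0.13 to 0.45 higher in the newborn than at 145 d over the 4 regions, and MHCII-DRB1 was 1.52 to 2.44 higher. The group means of IRF2 were low, from 6.80 in cortex at 80 d to 7.59 in newborn brainstem. The 2 CHI3L1 spots that were not well above background read 6.47 and 7.13. The newborn and 145 d means, by which CHI3L1 was chosen, were among the 24, so a shared newborn peak is partly built into this choice. Over the 20 means before birth r was 0.790 for IRF2, 0.784 for NUDT16, 0.637 for OVAR, 0.6725 for CD86 and 0.682 for MHCII-DRB1. Probes of histocompatibility genes can take signal from related copies.

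Within groups, after the mean of each region and age was taken off, the highest r over the 95 arrays were 0.608 for the T cell receptor chain CD3E, 0.565 for the proteasome activator PSME2, 0.553 for granulysin (GNLY), 0.531 for the cytidine deaminase APOBEC3F and 0.512 for CD3D. Without newborn hypothalamus replicate 1, 2 of these 5 remained among the first 5, CD3E with 0.538 and APOBEC3F with 0.553, and PSME2 fell to 0.302. The other 3 were then CXCL10 with 0.551, CD40 with 0.501 and TNF with 0.499. These correlations are a description, since the points share arrays, slides and normalization.

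**Figure D5:**
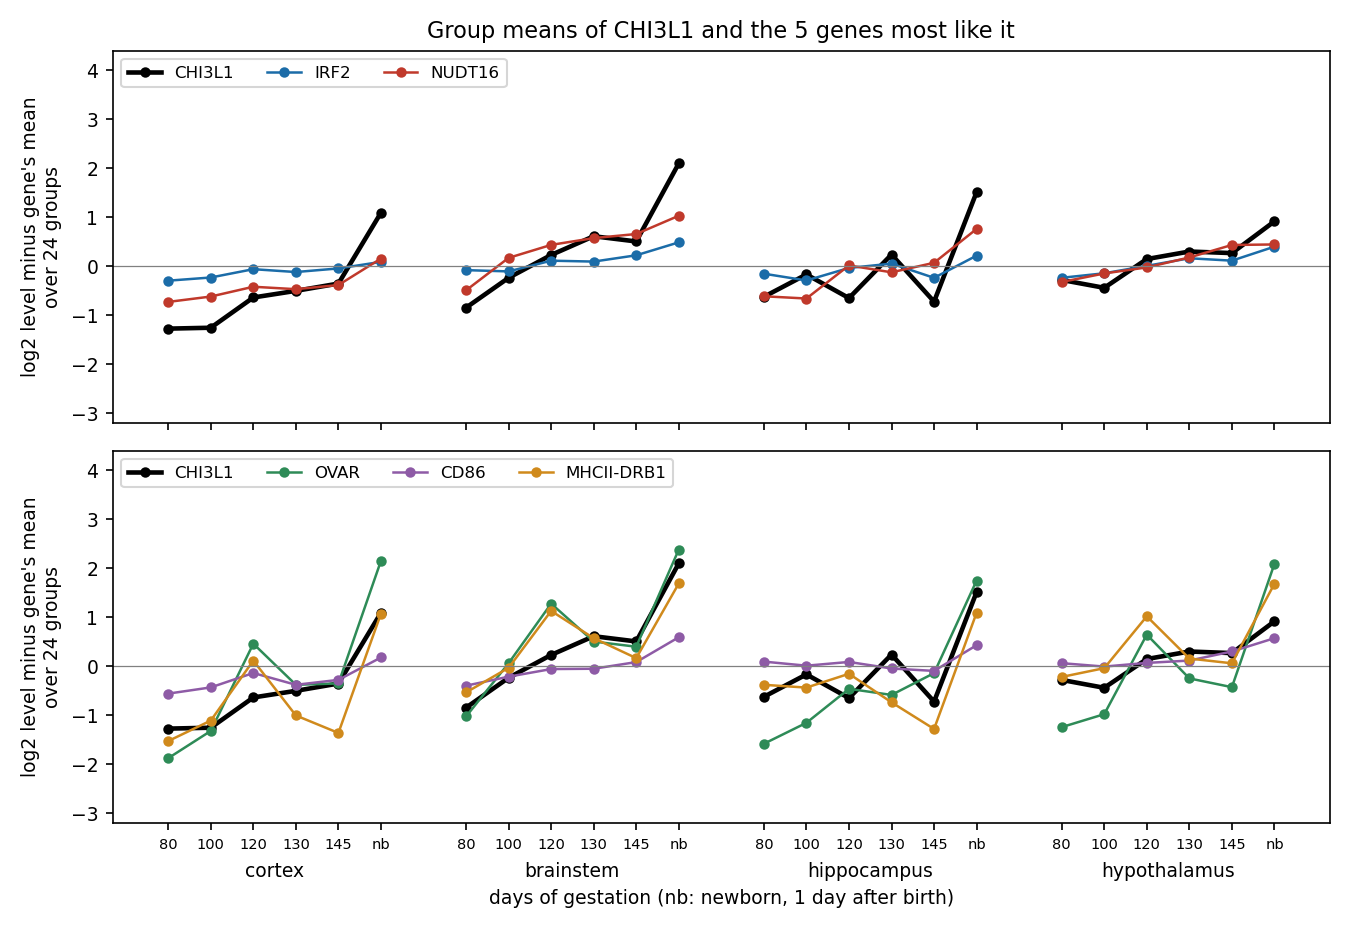
Group means of CHI3L1 and of the 5 genes with the highest Pearson r to it, as log2 level minus each gene's mean over the 24 groups (vertical axis), against age within each region (horizontal axis). The upper panel shows IRF2 and NUDT16 and the lower panel OVAR, CD86 and MHCII-DRB1. All 6 genes have their highest point of each region in the newborn, which is partly built into the choice, since r was taken over means that include the newborn. IRF2 and CD86 span a narrower range than CHI3L1.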

How the data were processed

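The members and lists were chosen with earlier results of these data known. The authors labelled RNA with Cy3 and read each array with Agilent Feature Extraction. The headers of the arrays give its version as 10.1.1.1, while the paper's methods name a different version. The deposited array files hold mean, background and processed intensity per spot, before normalization between arrays. A deposited table of the series holds the authors' normalized log2 values of 11138 probes and was used as an alternative. Spots were corrected with normexp (offset 50) in limma 3.58.1 under R 4.3.3, quantile normalized over the 95 arrays and put on the log2 scale. Spots marked as outliers were left out (CHI3L1 had none). A probe was kept in a region where at least 4 arrays reached 1.1 times the level under which 95% of the 77 negative control spots lay. On 12 arrays 1 to 14 spots had a local background more than 100 units over their signal, and normexp then put the median negative control at 178 to 1514, against 55.3 to 70.5 on the other 83. The order of spots within an array is kept, and quantile normalization gives all arrays 1 shared distribution. Normexp with its background from the negative controls was added as an alternative after the data were seen. Probes of 1 gene were averaged. For each region, lmFit and eBayes were run over 6 ages, and 1 fit over 24 groups compared regions, with Benjamini-Hochberg adjustment over all genes and a threshold of 0.05. Probes were named through RefSeq, 1562 of 15008 with a symbol. The steps were tested on simulated data. The number of arrays limits the precision. Named genes were CHI3L1, the measured members of its family and reported receptors, up to 4 passing genes of each other list or, with none, the brightest 2, and the 5 genes most like CHI3L1 in each sense. Neighbouring spots, the 7 hippocampus arrays and the likeness without newborn hypothalamus replicate 1 were examined after the values were seen. Figures were drawn with matplotlib 3.10.9.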

Additional observations from a re-analysis of the deposited data

Results flagged for a closer look

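No group of 4 arrays had a CHI3L1 value far enough from the others to be singled out by Dixon's ratio, in 23 groups tested. The nearest was the hippocampus at 130 d, with a ratio of 0.822 for replicate 1 at 6.95 against a critical value of 0.829. Among 33 groups of the named list genes 1 value stood apart, TXNIP in brainstem at 145 d, where replicate 3 read 12.30 beside 12.10, 12.13 and 12.11. Chance alone would single out about 1 in 20 groups.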

How the results depend on the processing

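The newborn minus 145 d difference of CHI3L1 kept its direction in cortex (1.43 to 1.69), brainstem (1.54 to 1.86) and hippocampus (2.07 to 3.01) under the other ways of processing, and over arrays left out in turn (1.16 to 1.72, 1.37 to 1.76 and 1.95 to 2.71). In hypothalamus it was -0.010 with the processed signal minus the 75th percentile and ran from -0.017 to 1.65 over arrays left out. The fetal course in cortex passed with an offset of 16 (adjusted p = 0.0329), the processed signal (0.00245), quantile normalization within the region (0.0368), normexp from the negative controls (0.0462), slide as a block (0.0450) and the replicate block (0.0474), and ran from 0.0267 to 0.130 over arrays left out, passing without replicate 4 at 120 d, replicate 1 at 130 d, or newborn replicate 1 or 2. The 130 d minus 80 d difference in cortex ran from 0.68 to 0.95 over arrays left out, and 7 of 24 lost the call. In brainstem, the fetal course and the 130 d minus 80 d difference passed under 11 other settings and over 24 arrays left out. With slide as a random block between regions (correlation 0.23), the F test of the region differences had an adjusted p of 0.122, and brainstem minus cortex was 0.85 (adjusted p = 0.0877), hypothalamus minus cortex 0.90 (0.0742) and hippocampus minus cortex 0.62 (0.240), none past the threshold. Hippocampus minus cortex was 0.59 without the 7 hippocampus arrays (adjusted p = 0.0671) and 0.54 to 0.77 over arrays left out, of which 9 of 95 lost the call (cortex replicate 4 at 100 d and 120 d and 1 at 130 d, hippocampus replicate 4 at 80 d, 3 at 100 d, 1 at 120 d, and 2, 3 and 4 at 130 d). The hypothalamus minus brainstem difference of -0.0085 became 0.0019 with an offset of 16, 0.044 with the processed signal and 0.046 with the slide block, and ran from -0.0645 to 0.0522 over arrays left out. The cause of these changes was not tested. List genes called at birth over arrays left out ran from 0 to 8 for cortex, from 3 to 13 for brainstem and from 2 to 5 for hypothalamus, and were 7 in hypothalamus with every probe on its own, the brightest probe, the slide block or the replicate block. In hippocampus the count was 0 under the 12 other settings and over the 23 arrays left out.

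Replicate numbers were not taken to pair the samples, since the labels do not say that a number marks 1 animal. At 1 age, arrays of the same number and another region had a median r of 0.057 with 56 of 141 over 0.1, against -0.045 with 91 of 423 for other numbers. Within 1 region, arrays of the same number and another age had a median of 0.10 with 118 of 235 over 0.1, against -0.039 with 208 of 705. Arrays of the same number were thus more alike in both comparisons, also between ages, where they cannot come from 1 animal. In cortex every array of replicate 1 lay on slide 1 and every array of replicate 4 on slide 3. The part of the slide in this likeness was not tested. The replicate block moved the hypothalamus count from 4 to 7 and, beside the cortex course, changed no other call of CHI3L1. Quantile normalization within each region was not run for comparisons between regions, since regions would then be scaled apart. CHI3L1 has 1 probe, so the 2 alternatives on probes leave its level as it was. Over 17 calls of named list genes and 11 settings, 163 of the values kept the call, 24 lost it and 0 turned direction. By Spearman's rho 3 of the 5 genes most like CHI3L1 over group means remained. Normexp from the negative controls gave newborn minus 145 d differences of 1.59 for cortex, 1.69 for brainstem, 2.49 for hippocampus and 0.62 for hypothalamus. Background limits the lowest levels, among them several arrays of cortex at 80 and 100 d and of hippocampus at 120, 130 and 145 d and the newborn hypothalamus array at 6.47.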
